A study of Homo sapiens with 6 samples.

Results

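SOX9 and 6 other genes used to mark liver progenitor and liver cancer stem cells were followed in HCC-LM3 cells with and without apigenin. The members were SOX9, SOX4, SPP1, EPCAM, PROM1, CD24 and CD44, taken by their gene symbols. All 7 were listed among the 23059 genes of the tables, and 5 of the 7 had enough reads to be among the 15173 genes tested. HCC-LM3 is a human hepatocellular carcinoma cell line of high metastatic potential, kept as an established culture. One group of 3 cultures received DMSO, the solvent, and the other group of 3 received apigenin, a flavone found in plants. The labels call the samples of a group biological replicates and give no genetic change in either group. The sources used here do not state the dose or how long the cells were treated. The study asked how apigenin changes transcription in these cells. The cells are 1 tumour line, so that the values describe this line and not liver tissue.

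SOX9 is a transcription factor with an HMG box that marks bile duct cells and the progenitor cells of the ductal plate, and that is low in mature hepatocytes. SOX4 is a related HMG box factor that works beside SOX9 in bile duct development. SPP1 encodes osteopontin, a secreted matrix protein that binds integrins and CD44. CD44 is the main cell surface receptor for hyaluronan, EPCAM is an epithelial adhesion molecule, CD24 is a small sialylated surface protein anchored by a lipid, and PROM1 encodes CD133, a membrane protein of cell protrusions. Tumours of the liver that keep these markers are described as having progenitor features. Notch and YAP signalling are known upstream inputs to SOX9 in the biliary lineage.

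The bases upstream of the transcription start are shown for the 3 members with a single start in the RefSeq table (GRCh38.p14), because they include the member with the highest level, SPP1, and 2 members that were lower with apigenin. Of the 7 members 5 matched that table, and SOX9 and EPCAM did not. Each run holds the 250 bases before the start, 5′ to 3′ on the gene's strand. Capitals mark the core letters of SOX factor sites (ACAAT, or ATTGT on the other strand) and of aryl hydrocarbon receptor sites (GCGTG, or CACGC on the other strand), which do not overlap each other in these runs. The windows lie at chr4:87975464-87975713 for SPP1, at chr6:21593501-21593750 for SOX4 and at chr11:35138921-35139170 for CD44, all on the plus strand.
SPP1: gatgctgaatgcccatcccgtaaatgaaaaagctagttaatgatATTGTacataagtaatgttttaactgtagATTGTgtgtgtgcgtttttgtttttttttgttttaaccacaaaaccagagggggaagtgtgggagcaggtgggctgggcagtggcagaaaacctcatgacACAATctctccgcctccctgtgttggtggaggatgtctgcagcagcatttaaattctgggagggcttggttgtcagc
SOX4: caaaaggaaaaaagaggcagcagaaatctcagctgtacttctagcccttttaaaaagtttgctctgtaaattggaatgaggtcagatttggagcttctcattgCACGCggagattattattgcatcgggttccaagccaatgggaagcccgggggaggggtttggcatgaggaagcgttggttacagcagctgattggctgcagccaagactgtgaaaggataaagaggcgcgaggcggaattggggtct
CD44: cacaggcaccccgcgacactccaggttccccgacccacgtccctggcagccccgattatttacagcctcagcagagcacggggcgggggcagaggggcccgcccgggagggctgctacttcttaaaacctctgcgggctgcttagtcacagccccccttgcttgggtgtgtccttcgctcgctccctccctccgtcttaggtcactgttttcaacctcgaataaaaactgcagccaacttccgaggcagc

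The SPP1 window held 3 matches to the SOX core and 0 to the receptor core, and 1.37% of all 35116 windows of this length held 3 or more SOX cores. The SOX4 window held 0 SOX cores and 1 receptor core, and the CD44 window held neither. Of the windows of all genes 24.6% held a SOX core and 32.2% a receptor core. Of the 3 CD24 starts, 1 had a SOX core and another had a receptor core. PROM1 has starts numbered 1 to 4 here. Its starts 1 and 2 had neither core, and starts 3 and 4 had 1 receptor core each and 0 SOX cores. A match is a run of letters and not a measured binding site.

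Levels of the members spanned a wide range under DMSO. Between genes they are compared as FPKM, reads scaled to gene length and to the counted reads of the library. SPP1 stood first, at 407, 380 and 399 FPKM in DMSO 1, 2 and 3, above 99.5% of the listed genes. CD24 followed at 108, 106 and 107 FPKM, and CD44 at 43.9, 43 and 44.3. SOX4 had 30.9, 32.3 and 32.1 FPKM and SOX9 had 18.3, 18.8 and 19.3. In these 5 genes no DMSO library of a gene overlapped those of the next gene down, the closest being CD44 and SOX4, whose means differed 1.38-fold. EPCAM and PROM1 came last, with a mean of 0.111 ± 0.0689 FPKM (SD, n = 3) and with 0 reads. The apigenin libraries kept this order of the means. The label of progenitor markers therefore applied unevenly here, since the line held much SPP1, CD24 and CD44 RNA and hardly any of EPCAM and PROM1.

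**Figure D1:**
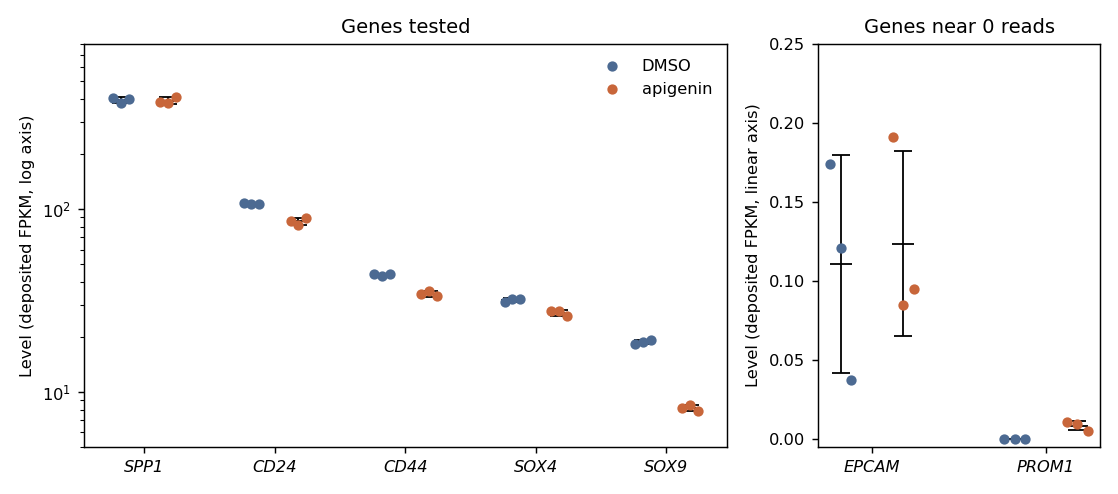
Level of each gene in the 3 DMSO and 3 apigenin libraries (deposited FPKM, on a log axis on the left and a linear axis on the right), with points for libraries and black marks for the mean ± SD. SOX9 goes from 18.3 to 19.3 FPKM with DMSO to 7.85 to 8.45 with apigenin, while the 2 groups of SPP1 points overlap.

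The members were chosen by name with results of the same contrast in view, that is, selected on their counts and FPKM in these 6 libraries. Their differences between apigenin and DMSO are therefore given as a description. Their calls in the fit to all genes are listed further below, and nothing is read from them. Within a gene, levels are given as CPM, counts scaled to the size of the library with TMM factors, and differences as log2 fold changes of apigenin over DMSO ± SE from a fit to all genes (edgeR). In RNA of whole cultures, fewer cells that express a gene and less RNA per cell cannot be told apart. Depth was alike, with 33882145 to 37983636 counts per library.

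SOX9 (chromosome 17, 72121020 to 72126416) had 72.0, 73.6 and 75.9 CPM in the DMSO libraries and 32.1, 32.9 and 31.2 in the apigenin libraries. Each apigenin library lay far below each DMSO library, and the replicates of a group lay close together, with a coefficient of variation of 2.67% with DMSO and 2.62% with apigenin. The level with apigenin was 43.4% of that with DMSO (log2 fold change -1.20 ± 0.066, n = 3 per group). The values rest on 8057 reads over the DMSO libraries and 3400 over the apigenin libraries. SOX9 passed 86.4% of the listed genes in FPKM with DMSO and 74.6% with apigenin. Relative to the DMSO mean, apigenin 1, 2 and 3 stood at -1.20, -1.16 and -1.24 on the log2 scale.

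SOX4 (chromosome 6, 21593751 to 21598619), the other SOX factor of the set, had 151, 157 and 157 CPM with DMSO and 134, 133 and 128 with apigenin. The groups did not overlap, but the gap was small, with apigenin at 85.2% of DMSO (-0.23 ± 0.055). The ratio of SOX9 to SOX4 within a library, in FPKM, does not depend on how libraries are scaled. It was 0.592, 0.582 and 0.6 with DMSO and 0.296, 0.306 and 0.302 with apigenin. SOX9 RNA was thus lower against its relative SOX4 in every apigenin library, as it was against CD44, where the ratio went from 0.418 to 0.437 down to 0.236 to 0.24.

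SPP1 (chromosome 4, 87975714 to 87983411) had 712, 662 and 700 CPM with DMSO and 670, 661 and 730 with apigenin. The groups overlapped, apigenin 3 being the highest of all 6 libraries and apigenin 2 the lowest. The log2 fold change was -0.01 ± 0.055. Osteopontin RNA was among the most abundant messages of these cells, above 99.5% of listed genes with apigenin as with DMSO. With each library's trend on gene length removed, SPP1, which is short at 1750 nucleotides, stood at -0.11 ± 0.039.

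CD44 (chromosome 11, 35139171 to 35232402) had 310, 302 and 313 CPM with DMSO and 240, 249 and 238 with apigenin. All 3 apigenin libraries lay below all 3 DMSO libraries, at 78.5% of the DMSO level (-0.35 ± 0.052). The counts are per gene and do not resolve the variant exons of CD44. In RefSeq, SNORD164 and CD44-AS1 overlap the gene, and neither has a row of its own in the tables used here. No source used here says whether reads were counted by strand, so reads of CD44-AS1 could be part of the CD44 count.

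CD24 (chromosome 6, 106969831 to 106976855) had 381, 376 and 381 CPM with DMSO and 304, 289 and 322 with apigenin, which is 80.4% of the DMSO level (-0.32 ± 0.055). The groups did not overlap, and the spread was larger with apigenin, with a coefficient of variation of 5.44% against 0.838% with DMSO. RefSeq lists 5 pseudogene copies of CD24, none of them with a row of its own in the tables, so its level is uncertain to the extent that reads were shared with them.

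EPCAM and PROM1 were too low to compare. EPCAM (chromosome 2, 47369311 to 47387020) had 10, 7 and 2 reads with DMSO and 10, 5 and 5 with apigenin. The sums of 19 (95% exact Poisson interval 11.4 to 29.7) and 20 (12.2 to 30.9) could not be told apart at this depth. PROM1 (chromosome 4, 15968228 to 16084023) had 0 reads in each DMSO library and 2, 2 and 1 reads with apigenin. The exact interval of the DMSO sum of 0 runs up to 3.69 reads. The separate limit of 3 counts lies at 0.0275 CPM over that group. The sum of 5 reads has an interval of 1.62 to 11.7. These intervals cover counting error only.

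Of the 5 members tested, 4 had an adjusted p under 0.05 in the fit (edgeR's quasi-likelihood test, Benjamini-Hochberg over all genes tested), against 6.99% of all genes tested, all 4 lower with apigenin (4.22% of all genes tested were called lower). The same 4 had groups that did not overlap, all lower. Groups did not overlap in 29.4% of all genes tested, with 15% lower and 14.4% higher. The choice of the members used this contrast, so nothing is read from these counts. In the fits without DMSO 1, 2 or 3 or without apigenin 1, SOX4 was no longer past that threshold, with log2 fold changes of -0.25, -0.22, -0.22 and -0.24. The same was true with limma on log2(FPKM + 1) without a filter on low genes (-0.22), so SOX4 was past the threshold in 11 of 16 alternatives. The apigenin libraries also differed in how levels followed gene length. The slope per doubling of length was -0.0707, -0.0211 and -0.147 log2 units in apigenin 1, 2 and 3, and -0.0047 to 0.0032 in the DMSO libraries. With that trend removed, SOX9 (3931 nucleotides) stood at -1.21, SOX4 (4869) at -0.21, CD24 (3547) at -0.33 and CD44 (7057) at -0.26.

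**Figure D2:**
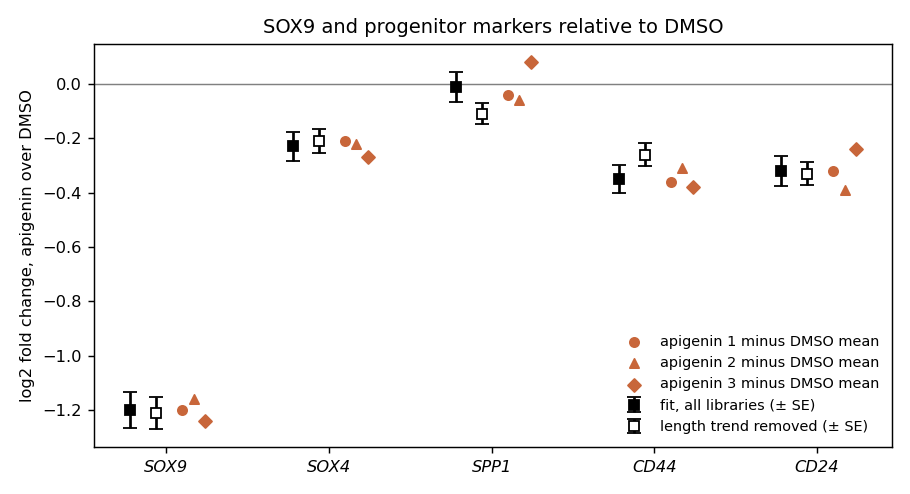
Log2 fold change of apigenin over DMSO for the 5 tested genes, with filled squares for the fit to all libraries and open squares for the fit with the length trend removed (both ± SE), and coloured marks for each apigenin library against the DMSO mean. SOX9 stands near -1.2 under both fits, CD44 goes from -0.35 to -0.26 and SPP1 from -0.01 to -0.11.

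Genes related to the members were taken from lists of SOX factors, biliary and stem cell markers, Notch and YAP pathway genes, and ligands and receptors. Over the 109 tested genes of all lists, each counted once, 3 rose and 17 fell at an adjusted p under 0.05, against 2.76% of all tested genes that rose and 4.22% that fell. The median log2 fold change was -0.08 over these genes and 0.00 over all genes tested. The lists were chosen with earlier results of these data known. Nothing is therefore read from these counts or from those of the single lists below. Genes named below that did not pass the test were chosen after their values were seen.

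Among other SOX factors, 3 of 16 were tested and 1 fell, against 4.22% of all genes tested. SOX2, a factor of pluripotent and neural stem cells, fell from 26.1 ± 2.38 to 20.9 ± 0.752 CPM (-0.32 ± 0.091, adjusted p = 0.0485). It was called in 6 of 16 alternatives. Its call ended when any single library but apigenin 2 was dropped (adjusted p 0.0554 to 0.237), with library totals only (adjusted p = 0.0527), with the replicate block (adjusted p = 0.0517) and in all 3 limma fits on FPKM (adjusted p 0.0538 to 0.145). SOX13 (-0.19 ± 0.069) and SOX12 (-0.18 ± 0.119) did not pass, although SOX13 passed with the length trend removed (-0.19 ± 0.061, adjusted p = 0.0499). SOX5 and SOX6, the partners of SOX9 in cartilage, had at most 8 reads in any library and were not tested.

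Of the biliary and progenitor markers outside the set, 2 of 12 tested genes fell and 10 did not pass. Of all genes tested 4.22% fell. KRT19, a keratin of bile duct cells, fell from 195 ± 6.51 to 156 ± 16.3 CPM (-0.32 ± 0.071, adjusted p = 0.0172). ONECUT2, a transcription factor of liver and bile duct development, fell from 41.2 ± 0.859 to 28.6 ± 8.12 CPM (-0.52 ± 0.140, adjusted p = 0.04). Its 3 apigenin libraries were uneven, at 25.1, 37.9 and 22.9 CPM, and apigenin 2 was nearest to DMSO. Neither gene passed once apigenin 1 or any of the DMSO libraries was dropped (KRT19 was called in 11 and ONECUT2 in 9 of 16 alternatives, with a largest adjusted p of 0.129 and 0.288). The other biliary keratin, KRT7, went from 12.8 ± 0.524 CPM under DMSO to 16.3 ± 3.4 under apigenin, a log2 fold change of 0.35 ± 0.134 that did not pass (adjusted p = 0.123). CLDN4 and ELF3, abundant epithelial genes, had log2 fold changes of 0.05 ± 0.067 and 0.08 ± 0.053. The fetal liver gene AFP had -0.21 ± 0.156 (adjusted p = 0.452). ONECUT1 had the largest difference of the tested genes in this list, from 3.23 ± 0.0988 to 1.92 ± 0.719 CPM. Its groups did not overlap, and it did not pass (-0.74 ± 0.269, adjusted p = 0.109).

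None of the 11 tested liver cancer stem cell markers outside the set passed (edgeR, with 2 at an unadjusted p under 0.05, 0 called by DESeq2 and 0 by limma on FPKM). With the length trend removed 2 of the 11 passed, ABCG2, a drug efflux pump gene, higher (0.19 ± 0.044, adjusted p = 0.00794) and KLF4, a pluripotency factor gene, lower (-0.17 ± 0.053, adjusted p = 0.0464). Without that step they stood at 0.15 ± 0.054 and -0.13 ± 0.063. ALDH1A1, an aldehyde dehydrogenase used to sort stem-like cells, had 1727.5 ± 24.4 CPM with DMSO and 1743.5 ± 90.2 with apigenin (0.01 ± 0.049). ANPEP, which encodes CD13, had -0.08 ± 0.065. LGR5, NANOG and THY1 had at most 1 read in any library.

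Notch signalling lies upstream of SOX9 in bile duct formation, and the Notch list holds genes of the pathway and its targets. Of 24 tested genes 1 rose, 3 fell and 20 did not pass, with a median log2 fold change of -0.01. Of all genes tested 2.76% rose and 4.22% fell. The receptor gene NOTCH1 rose from 34.6 ± 1.03 to 46 ± 6.81 CPM (0.41 ± 0.097, adjusted p = 0.0227). The ligand gene JAG1 fell from 252 ± 2.15 to 196 ± 16.5 CPM (-0.36 ± 0.064, adjusted p = 0.00472), the receptor gene NOTCH2 from 102 ± 3.64 to 77.3 ± 15.1 CPM (-0.40 ± 0.108, adjusted p = 0.0416) and ADAM10, a protease that cuts Notch and CD44, by 0.24 ± 0.066 on the log2 scale (adjusted p = 0.0408). The Notch target genes HES1 and HEY1 stood at 0.01 ± 0.073 and 0.12 ± 0.103 and did not pass. Another target gene, HEY2, had the largest difference of the tested genes in this list, on few reads. It had 6, 10 and 11 reads with DMSO and 24, 26 and 22 with apigenin (1.44 ± 0.531), groups that did not overlap, and it did not pass (adjusted p = 0.112). With the length trend removed, ADAM10 was not called (-0.08, adjusted p = 0.291), NOTCH1 stood at 0.55 and NOTCH2 at -0.24. Dropping apigenin 1 or any of the DMSO libraries ended the calls of NOTCH1, NOTCH2 and ADAM10, which were called in 9, 8 and 8 of 16 alternatives (largest adjusted p 0.236, 0.282 and 0.291). JAG1 was called in 15 of 16.

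The list of YAP, TAZ and TEAD, the other input to SOX9, also holds YAP targets. Of its 12 tested genes 1 fell, against 4.22% of all genes tested. CCN2, a secreted matrix protein and YAP target, fell from 71.6 ± 1.11 to 48.9 ± 5.39 CPM (-0.55 ± 0.078, adjusted p = 0.0011). With the length trend removed 3 fell, namely CCN2 (-0.62), CCN1 (-0.47, adjusted p = 0.0363) and TEAD2 (-0.41, adjusted p = 0.0301). Before that step CCN1, another secreted YAP target, had -0.40 ± 0.145 and the factor gene TEAD2 had -0.37 ± 0.116, and neither passed. The list members AMOTL2 (0.10 ± 0.096) and AJUBA (0.14 ± 0.085) did not pass under either fit. CCN2 was called in 15 of 16 alternatives. YAP1 had -0.14 ± 0.066 and WWTR1, which encodes TAZ, 0.04 ± 0.061. TEAD1 had -0.27 ± 0.089 (adjusted p = 0.0805).

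Most cartilage targets of SOX9 were hardly expressed here, and 5 of 16 were tested. Of these 1 fell, against 4.22% of all genes tested. COL27A1, a fibrillar collagen gene, fell from 51.2 ± 0.748 to 39.1 ± 4.67 CPM (-0.39 ± 0.085, adjusted p = 0.0154) and stood at -0.27 with the length trend removed. It was called in 10 of 16 alternatives, and the call ended when any of the DMSO libraries was dropped and in the 3 limma fits on FPKM (largest adjusted p 0.164).

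Some genes of the partners of osteopontin and CD44 fell, as did 4.22% of all genes tested. Of 7 tested osteopontin receptor genes 1 fell, ITGAV, which encodes integrin alpha V, from 386 ± 13.7 to 312 ± 40.6 CPM (-0.31 ± 0.077, adjusted p = 0.0313). ITGB1 (-0.15 ± 0.061) and ITGB5 (-0.01 ± 0.058), which encode its beta chains, did not pass. Of 11 tested genes around CD44, 4 fell and 7 did not pass, against the same 4.22% of all genes tested that fell. VCAN, which encodes the hyaluronan-binding proteoglycan versican, fell from 8.49 ± 0.295 to 4.66 ± 1.32 CPM (-0.86 ± 0.185, adjusted p = 0.0145). HAS2, a hyaluronan synthase gene, fell from 5.32 ± 0.854 to 3.06 ± 0.863 CPM (-0.80 ± 0.223, adjusted p = 0.0456). RDX, which encodes radixin, a linker of CD44 to actin, fell by 0.25 ± 0.071 on the log2 scale (adjusted p = 0.0477), and the fourth gene was ADAM10. The splicing factor gene ESRP2 (-0.35 ± 0.101, adjusted p = 0.0522) and SRGN, which encodes the CD44 ligand serglycin (0.40 ± 0.119, adjusted p = 0.0562), did not pass. The calls of ITGAV, VCAN, HAS2 and RDX ended when apigenin 1 or any of the DMSO libraries was dropped, and that of HAS2 also without apigenin 2. These 4 genes were called in 9, 9, 8 and 8 of 16 alternatives, with a largest adjusted p of 0.227, 0.134, 0.204 and 0.241. With the length trend removed, ITGB1 (-0.15, adjusted p = 0.0428) fell and SRGN (0.36, adjusted p = 0.0414) rose. DESeq2 called 6 of the genes around CD44. Of 6 tested EPCAM partners none passed (edgeR, with 0 at an unadjusted p under 0.05, 0 called by DESeq2 and 0 by limma on FPKM), among them CLDN7 (-0.01 ± 0.086) and CTNNB1, which encodes beta-catenin (0.03 ± 0.055).

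**Figure D3:**
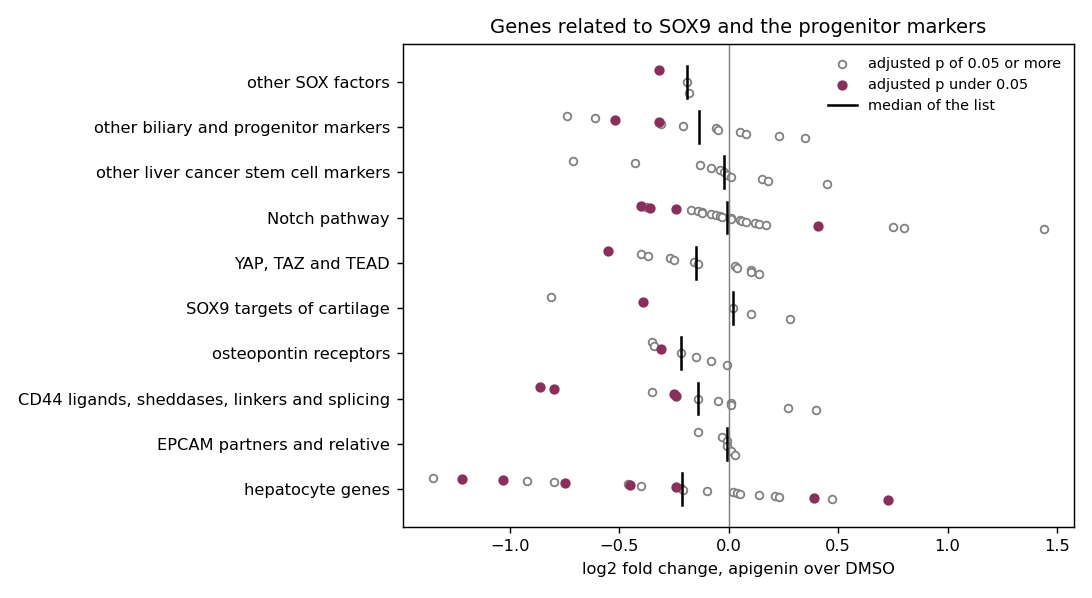
Log2 fold change of apigenin over DMSO for the tested genes of each list, with filled points for an adjusted p under 0.05 and black bars for the median of the list. In the Notch list 1 filled point lies to the right of 0 and 3 to the left, and among hepatocyte genes 2 lie to the right and 5 to the left.

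Hepatocyte genes are the other arm of liver cell identity. Of 22 tested 2 were higher and 5 lower, against 2.76% and 4.22% of all genes tested. ALB, which encodes albumin, fell from 123 ± 3.3 to 52.9 ± 1.23 CPM (-1.22 ± 0.060, adjusted p = 3.82e-08), a change of about the same size as that of SOX9. SERPINA1, which encodes alpha-1-antitrypsin, fell by 1.03 ± 0.086 on the log2 scale (adjusted p = 8.54e-06). APOB, the structural protein gene of very low density lipoprotein, fell by 0.75 ± 0.122 (adjusted p = 0.00259). The others that fell, FOXA1, a pioneer transcription factor gene (-0.45 ± 0.063, adjusted p = 0.00108), and TF, which encodes transferrin (-0.24 ± 0.059, adjusted p = 0.03), were named after their values were seen, as was CEBPA (0.39 ± 0.074, adjusted p = 0.00703), a hepatocyte transcription factor gene that rose. TAT, a tyrosine-degrading enzyme gene, rose from 3.91 ± 0.303 to 6.51 ± 1.11 CPM (0.73 ± 0.169, adjusted p = 0.021). The regulator gene HNF4A had 76 ± 3.45 and 71.1 ± 3.54 CPM (-0.10 ± 0.066, adjusted p = 0.406). With the length trend removed TF stood at 0.01 and was not called (adjusted p = 0.974). TF and TAT were also not called when apigenin 1 or any of the DMSO libraries was dropped, nor CEBPA when DMSO 1 or 3 was, and TF, TAT and CEBPA were called in 8, 11 and 13 of 16 alternatives (largest adjusted p of TAT 0.143 and of CEBPA 0.109). APOB was called in 15, and ALB, SERPINA1 and FOXA1 in all 16.

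The genes nearest to SOX9 in profile were ALB, FOSB and CLDN2, the first a plasma protein gene, the second an AP-1 transcription factor gene and the third a tight junction gene. Likeness was the root mean square difference between log2 CPM profiles over the 6 libraries, each centred on its mean, among 10707 other genes of 5 CPM or more. ALB differed from SOX9 by 0.055, FOSB by 0.089 and CLDN2 by 0.098 log2 units. With groups this far apart, the measure mostly reflects a like fold change. Among the 3 nearest genes of each other member, SOX4 lay near TTYH3 and PBLD (0.007 and 0.012), CD24 near IGFBP3, DEPDC7 and ZFP36 (0.027 to 0.029), CD44 near CASK, KALRN and POF1B (0.021 to 0.025) and SPP1 near SARAF and PGRMC2 (0.017 and 0.019). By Pearson correlation in place of this distance, 1 of the 15 nearest genes of the 5 members was chosen again.

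**Figure D4:**
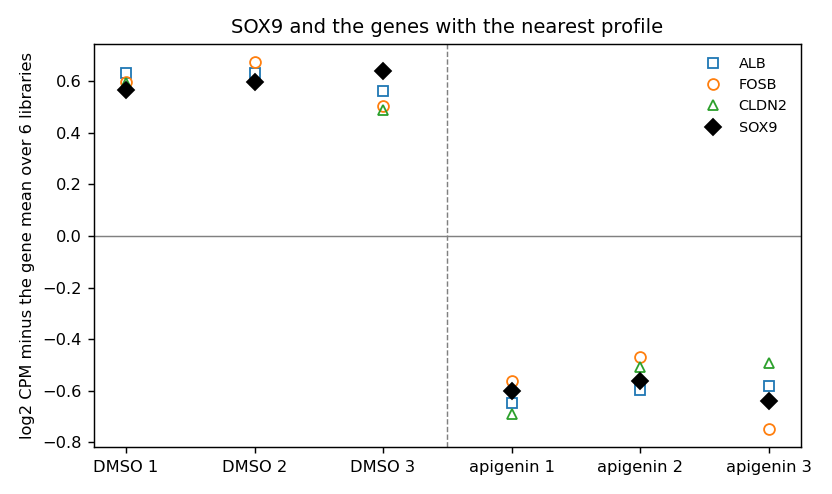
Log2 CPM of SOX9 (black diamonds) and of ALB, FOSB and CLDN2 in each library, centred on each gene's mean over the 6 libraries. All 4 genes lie above 0 in the DMSO libraries and below 0 in the apigenin libraries.

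Around SOX9, within 1 Mb on either side, RefSeq lists 21 other genes. Of these 4 were tested, 1 rose and the other 3 did not pass. That gene, LINC00673 (chromosome 17, 72403322 to 72592804), a long non-coding RNA gene that lies 282 kb beyond the SOX9 start, went from 34.8, 35.3 and 34 CPM with DMSO to 49.2, 48.3 and 46.4 with apigenin (0.47 ± 0.069, adjusted p = 0.00141). All 3 apigenin libraries lay above all 3 DMSO libraries, opposite to SOX9, and the call held in all 16 other settings (adjusted p of up to 0.0207). SLC39A11, a zinc transporter gene further along, had 31 ± 1.39 and 27.2 ± 0.654 CPM (-0.19 ± 0.077, adjusted p = 0.155). SOX9-AS1, whose nearer edge lies 0.227 kb from the SOX9 start, had at most 0.145 CPM in any library. No listed gene overlaps SOX9. This window was chosen after the values were seen.

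Markers of the labelled cell type and of others were read alongside. Of 8 hepatocyte markers 7 had a mean of 0.5 FPKM or more. All 8 summed to 100 to 105 FPKM with DMSO and 57.6 to 61.1 with apigenin. ALB alone had means of 53.9 and 23.1 FPKM. Of 5 biliary markers 3 reached that level, namely KRT7, KRT19 and SOX9 itself. The 4 listed ones summed to 159 to 169 FPKM with DMSO and 117 to 139 with apigenin. Means with DMSO and apigenin were 140 and 112 FPKM for KRT19, 18.8 and 8.16 for SOX9 and 4.8 and 6.12 for KRT7. AFP was at 3.02 to 3.35 FPKM with DMSO. Of the fibroblast markers LUM, of the endothelial markers PECAM1 and KDR, and of the blood markers HBB reached that level. The other listed markers of these lists stayed below that level. Of these, COL1A2, PDGFRB, CDH5, PTPRC and CD3E, picked after their values were seen, had at most 9 reads in any library. COL1A1, DCN, VWF and LYZ were below that level too. The 3 lists summed to 8.5 to 9.3, 16.2 to 17.1 and 1.02 to 1.72 FPKM with DMSO and 10.7 to 11.6, 13.4 to 15 and 1.68 to 2.87 with apigenin. Their part in the differences above was not tested.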

How the data were processed

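RNA of 6 cultures was sequenced, 3 with DMSO and 3 with apigenin, and total RNA was taken up with TRIzol and a VAHTS kit, per the labels' protocols. Per the submitters' processing notes the authors used fastp, HISAT2 and HTSeq with GRCh38 (hg38). The authors deposited whole-number read counts per gene, with 33882145 to 37983636 counts per library, which puts the limit of 3 counts at 0.079 to 0.0885 CPM. They also deposited FPKM, which equalled count over a fixed gene length and library total in 100% of 23059 genes (tolerance 0.0001). Genes passing filterByExpr were fitted with edgeR 4.0.16 in R 4.3.3 (TMM scaling, quasi-likelihood test, Benjamini-Hochberg, threshold 0.05) and the fit was checked on simulated counts. DESeq2 1.42.0, limma 3.58.1 on log2(FPKM + 1) and log2(FPKM + 0.1), other scalings, no filter, a correction for gene length, a replicate block and leaving out each library were tried as alternatives. The members and the gene lists were chosen with earlier results of these data known. The genes named from a list were the up to 4 called genes of a mean of 1 CPM or more and the largest absolute log2 fold change. Replicates of a group are separate samples in the labels. The p-values set the difference between the groups against the spread between these 3 cultures per group, which edgeR estimates partly across genes. Some genes that this rule or the marker lists name are not reported here.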

Additional observations from a re-analysis of the deposited data

How the results depend on the processing

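The log2 fold changes of the 5 tested members kept their direction under all 16 alternatives except SPP1, which lay between -0.11 and 0.02. SOX9 lay between -1.22 and -1.11, the latter with limma on log2(FPKM + 1), with and without the filter on low genes. Removing the length trend moved SPP1 to -0.11 and CD44 to -0.26. Over all genes, 419 rose and 641 fell. DESeq2 gave 658 higher, no filter 865 higher and 1096 lower, removal of the length trend 715 higher, limma on log2(FPKM + 1) 303 lower, limma on log2(FPKM + 0.1) 289 lower, and limma on log2(FPKM + 1) without a filter 78 higher and 60 lower. Leaving out 1 library in turn gave 103 to 1344 higher and 157 to 1546 lower; the highest counts came without apigenin 2, and leaving out apigenin 1 or any DMSO library lowered both counts. Of the 109 list genes, 3 rose and 17 fell, against 5 higher with no filter, 5 higher with the length trend removed, 7 lower with either pseudocount in limma, 0 higher and 3 lower with limma without a filter, and 0 to 7 higher and 6 to 24 lower with 1 library left out. Of the 17 list genes named by the rule on called genes, 2 stayed past the threshold in all 16 alternatives, ALB and SERPINA1. FOXA1, a list gene named outside that rule, did so too. The nearest profiles shared 1 of 15 genes when Pearson correlation was used. The causes of these shifts were not tested. The replicate numbers were shared between the groups, but deviations of same-numbered libraries did not correlate (-0.0173, -0.0194 and -0.0482), so the numbers are not taken as pairs. With the replicate block 455 genes rose and 776 fell, and 4 and 19 of the list genes. Depth limits EPCAM and PROM1, whose few reads allow no comparison.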
